A study of Rattus norvegicus with 9 samples.

Results

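In synovial fibroblasts of the rat, which line the joint, 10 genes of the immediate early kind were followed: Fos, Fosb, Fosl1 and Fosl2 of the Fos family, Jun, Junb and Jund of the Jun family, and Atf3, Egr1 and Maff. They were chosen by gene symbol, and all 10 were found among the 17298 genes of the expression table. Of these, 9 reached a mean of at least 1 FPKM over the 9 libraries and were tested with 11372 genes in all. Fosb did not. FPKM is a fragment count divided by the length of the transcript and the size of the library. The cells carried the wild-type genotype and were isolated by enzymatic digestion of synovium. Control cells were kept in routine culture without added cytokine (3 libraries). A second group received IL-1β, an inflammatory cytokine of arthritic joints, in the same culture (3 libraries). The co-culture group received IL-1β and shared its medium with dermal fibroblasts held in the upper chamber of a transwell (3 libraries). The labels give neither dose nor duration of IL-1β. No group with IL-1β and an empty insert was analysed. In the co-culture comparison the second cell type, the insert and any change of medium therefore cannot be told apart. A group with dermal fibroblasts and without IL-1β was not analysed either. An effect of co-culture on the response to IL-1β thus cannot be told apart from one present without IL-1β. Whether the libraries of a group stem from different animals or cultures is not in the labels, so the p-values rest on a spread between libraries that may be technical only.

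AP-1 is a transcription factor assembled from paired proteins that hold together through a leucine zipper and touch DNA through a neighbouring basic region, the combination called bZIP. Jun proteins can pair with each other or with a Fos protein, whereas Fos proteins need a Jun partner. Atf3 and the small Maf protein Maff are bZIP proteins as well. Egr1 is a zinc finger factor whose gene is switched on together with Fos by MAP kinases acting through serum response factor. Transcripts of Fos, Fosb, Egr1 and Atf3 are typically made within minutes of a stimulus and decay quickly, while Fosl1 and Fosl2 usually follow later and last longer. In synovial fibroblasts AP-1 is known as a driver of collagenase and stromelysin genes, and IL-1 receptors signal to it through the JNK, p38 and ERK kinases.

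Upstream sequences were available for 7 of the 10 genes, matched by gene identifier to RefSeq promoter windows of assembly GRCr8. The 4 shown are those of Fosl1 and Maff, whose transcripts rose with IL-1β, of Jund, whose transcript fell, and of Junb, the most abundant of the 10. Each is the 250 bases before the annotated start, 5′ to 3′ on the gene's own strand, and capitals mark the motif matches described after them. The windows lie at chr1:212183635-212183884, plus strand (Fosl1), chr7:112792537-112792786, plus strand (Maff), chr16:18769772-18770021, minus strand (Jund) and chr19:40080876-40081125, plus strand (Junb).
Fosl1: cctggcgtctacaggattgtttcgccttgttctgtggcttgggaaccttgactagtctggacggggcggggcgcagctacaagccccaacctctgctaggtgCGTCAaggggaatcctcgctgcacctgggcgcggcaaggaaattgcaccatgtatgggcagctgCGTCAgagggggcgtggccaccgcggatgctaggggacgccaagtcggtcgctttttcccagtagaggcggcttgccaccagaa
Maff: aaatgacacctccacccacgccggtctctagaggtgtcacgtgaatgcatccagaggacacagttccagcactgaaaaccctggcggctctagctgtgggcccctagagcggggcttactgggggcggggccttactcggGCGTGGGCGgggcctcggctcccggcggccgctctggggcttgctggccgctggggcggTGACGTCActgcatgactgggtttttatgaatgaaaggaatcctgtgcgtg
Jund: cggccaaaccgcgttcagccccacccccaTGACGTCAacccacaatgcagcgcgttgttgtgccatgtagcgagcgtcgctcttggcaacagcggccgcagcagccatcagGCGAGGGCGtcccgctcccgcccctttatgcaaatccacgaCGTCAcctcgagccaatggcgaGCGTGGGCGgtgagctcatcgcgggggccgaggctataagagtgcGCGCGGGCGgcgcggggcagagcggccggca
Junb: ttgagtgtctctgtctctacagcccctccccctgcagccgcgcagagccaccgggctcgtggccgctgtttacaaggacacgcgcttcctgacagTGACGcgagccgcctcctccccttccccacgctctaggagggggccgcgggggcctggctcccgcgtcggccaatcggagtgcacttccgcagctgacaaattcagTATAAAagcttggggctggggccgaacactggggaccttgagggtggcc

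In these windows 6 motifs were searched on both strands: the AP-1 site TGANTCA, the core TGACG of the cyclic AMP response element (CRE), the CArG box bound by serum response factor, the Egr site GCGNGGGCG, the kappa B site of NF-kB and the TATA motif TATAAA. The full palindromic CRE, seen in Maff and Jund, counts as overlapping TGACG matches on opposite strands. The CRE core was in 5 of the 7 windows, those of Fosl1, Maff, Egr1, Jund and Junb, against 18.2% of all 33469 promoter windows of the same length and 29.1% of the 10138 belonging to genes kept for testing. Egr1 carried a pair of CArG boxes at 105 to 96 and 83 to 74 bases before its start, a motif held by 1.5% of all windows. Egr sites were in 3 windows, those of Maff, Jund and Fosl2 (4.29% of all windows and 8.62% of those of genes kept), and Jund had 3 of them. TATAAA was in 2 windows, those of Junb and Fosb, against 12.9% of all windows and 6.16% of those of genes kept. The AP-1 site and the kappa B site were in 0 of the 7, against 6.34% and 3.54% of all windows and 4.27% and 4.33% of those of genes kept, which says only that these letters are absent from these stretches. The CRE core was thus in windows of factors that rose with IL-1β, of factors that fell and of Junb, which did not pass.

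**Figure D1:**
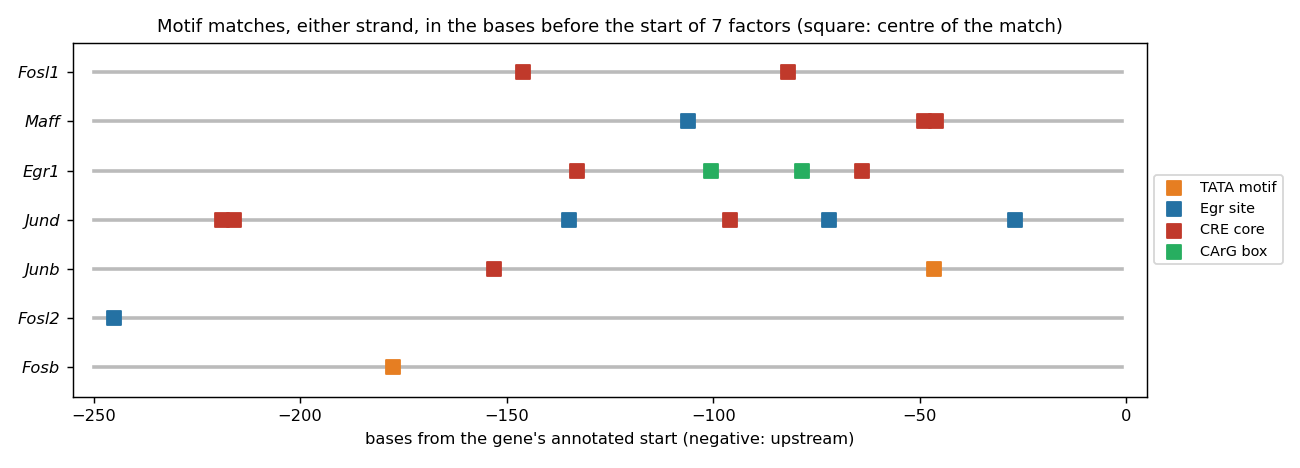
Motif matches on either strand in the bases before the annotated start of 7 factors; the x axis is the distance from the start in bases, and each square is the centre of 1 match. CRE cores occur in 5 of the 7 windows, and CArG boxes in that of Egr1.

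Libraries of one group resembled each other more than those of other groups, with rank correlations across genes of 0.9946 to 0.9959 within groups and 0.9584 to 0.9912 between them. FPKM sums ran from 679774 to 741810 per library, and the sequencing depth is unknown. Of fibroblast genes, Col1a1, a main fibrillar collagen gene, was at 1550 to 3243 FPKM and the intermediate filament gene Vim at 2111 to 4946. Of 20 fibroblast markers tested, 9 were higher and 10 lower with IL-1β, against 20.5% and 31.2% of all genes tested. Col1a1 and Vim were among the lower ones, whereas Dcn rose from 641 ± 4.57 to 3112 ± 110 FPKM. Gdf5, also on the list, was at 0.08 to 0.31 FPKM and was not tested. Ptprc, the pan-leukocyte gene, was at 0.04 to 0.13 FPKM (Col1a1 and Ptprc were picked for this check after their values were seen), and the 9 endothelial markers in the table summed to 1.23 to 2.25 FPKM. Macrophage and leukocyte markers summed to 32.7 to 33.7 FPKM in control, 45.2 to 52.5 with IL-1β and 32.5 to 35.9 in co-culture over 15 genes. Of 6 of these tested, 3 were higher and 1 lower with IL-1β. The most abundant were Cd14, a lipopolysaccharide receptor gene, at 13.5 ± 0.59 FPKM in control, 22.7 ± 0.82 with IL-1β and 15.9 ± 0.3 in co-culture, and Lyz2, a lysozyme gene, at 10.7 ± 0.9, 7.99 ± 0.4 and 7.76 ± 0.76. Chondrocyte markers summed to 286 to 303 FPKM in control, 44.4 to 47.3 with IL-1β and 136 to 138 in co-culture. Pericyte and smooth muscle markers summed to 192 to 199, 71.4 to 76.5 and 154 to 164 FPKM in the same order. Most of that was the actin gene Acta2, at 158 ± 4.51, 59 ± 1.32 and 128 ± 4.15 FPKM. Adipocyte markers were the highest of these sums, at 711 to 760 FPKM in control, 520 to 554 with IL-1β and 542 to 568 in co-culture, most of it Fabp4, a fatty acid carrier gene (565 ± 20.7 FPKM in control). Of 6 adipocyte markers tested, IL-1β gave 4 lower and 1 higher, and co-culture against control gave 6 lower, against 7.91% of all genes in that comparison. The part of these markers in the results below was not tested. In bulk RNA a change in the number of expressing cells and a change in RNA per cell cannot be told apart.

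In unstimulated cells Junb was by far the most abundant of the 10 transcripts, and Fos, Atf3 and Fosb were the least. Junb, which encodes a Jun protein that often opposes c-Jun, stood at 116 ± 3.51 FPKM (SD, n = 3 here and for later levels), above 94.5% of all genes in the table. A middle tier held Jund (27.1 ± 1.2 FPKM), Fosl1 (24.4 ± 0.93), Jun (20.8 ± 0.42), Egr1 (18.5 ± 0.13) and Fosl2 (17 ± 0.44), and their library ranges did not overlap between any neighbours in this order. Maff followed at 9.01 ± 0.27 FPKM, Fos at 3.48 ± 0.33, Atf3 at 2.21 ± 0.15 and Fosb at 0.22 ± 0.05. With IL-1β the order changed to Junb, Fosl1, Jun, Jund, Fosl2, Maff, Egr1, Fos, Atf3, Fosb, and the neighbours from Jun to Maff overlapped in their library values. In co-culture Jun, Jund, Egr1 and Fosl2 formed a run of overlapping neighbours behind Junb and Fosl1. Comparisons between genes are less sure than those of 1 gene across libraries, because the genome build in the submitters' processing notes is a mouse build, GRCm38, while the rows carry rat gene identifiers.

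**Figure D2:**
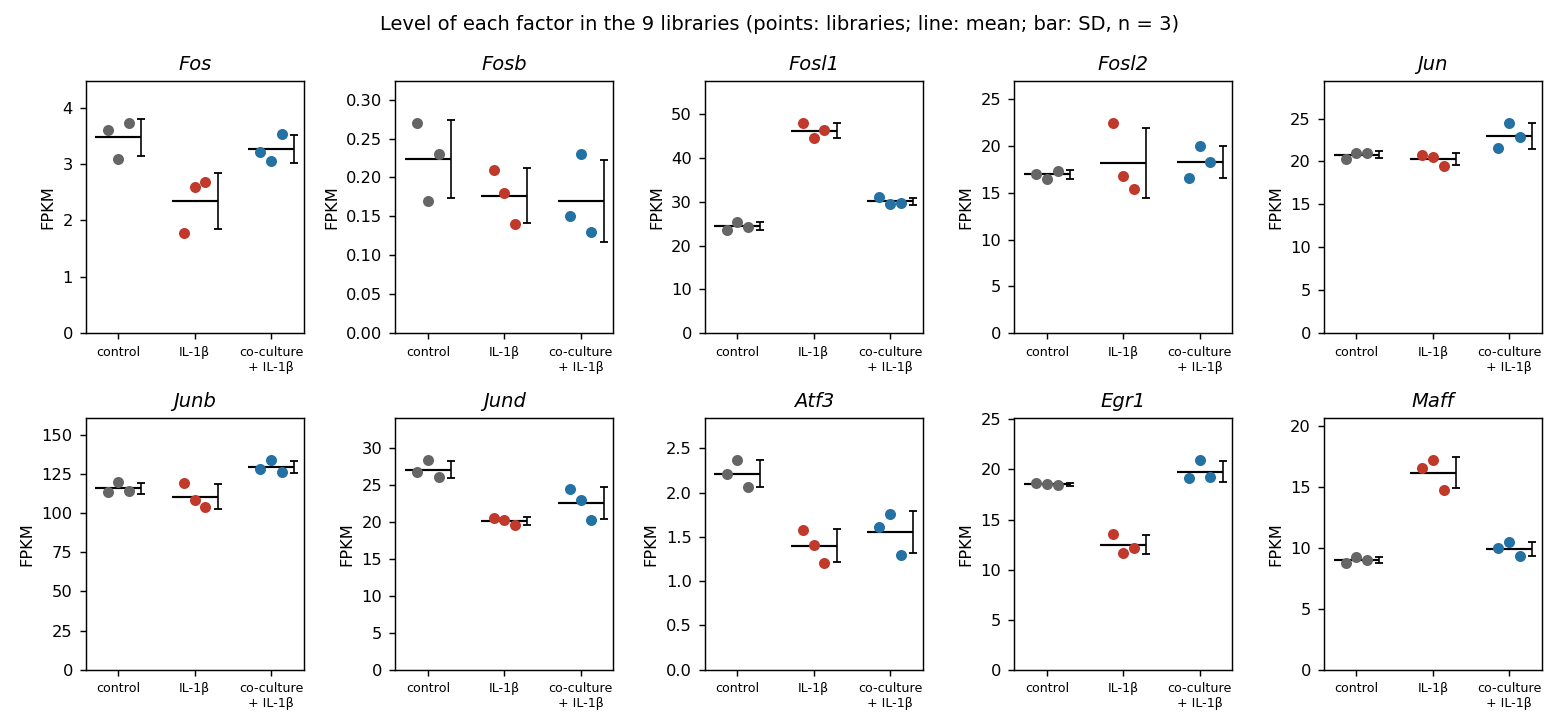
FPKM of each of the 10 factors in the 9 libraries (y axes from 0, a separate scale per gene); points are libraries, horizontal lines group means and bars the SD over 3 libraries. Fosl1 and Maff stand highest in all 3 IL-1β libraries, and Egr1 lowest.

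With IL-1β, Fosl1 and Maff rose and Egr1, Jund, Fos and Atf3 fell, whereas Jun, Junb and Fosl2 did not pass the test. Of the 9 factors tested, 2 were thus higher, against 20.5% of all genes tested, and 4 lower, against 31.2%. Counting both directions, 6 of 9 passed, against 51.7% of all genes, so the share of factors that passed was near the background. The test was limma on log2(FPKM + 1) over all 9 libraries, two-sided, with Benjamini-Hochberg adjustment over all 11372 genes and a threshold of 0.05. No factor changed by 1 or more on the log2 scale, whereas 4.61% of all genes did so and passed the threshold. The median log2 fold change of the 9 was -0.068, beside -0.044 for all genes.

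Among Fos family genes, Fosl1 and Fos passed the test with IL-1β, in opposite directions, Fosl2 did not and Fosb was not tested. Fosl1 encodes Fra-1, a Fos protein without the strong activating domain of c-Fos. It was at 23.6, 25.4 and 24.2 FPKM in the control libraries, 48, 44.5 and 46.3 with IL-1β and 31.1, 29.6 and 29.8 in co-culture. The 3 groups did not overlap, with IL-1β highest and co-culture between the others. Fosl1 rose 1.89-fold with IL-1β, a log2 fold change of 0.89 ± 0.04 (SE; limma adjusted p = 5.3e-09), a size reached in either direction by 5.86% of genes. Against IL-1β alone it was 1.54-fold lower in co-culture (log2 fold change -0.60 ± 0.04, limma adjusted p = 3.1e-07), a size reached by 7.18% of genes in that comparison. It was still 1.23-fold above control there (log2 fold change 0.29 ± 0.04, limma adjusted p = 0.00041), a size reached by 8.49%.

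Fos, the archetypal immediate early gene, read 3.6, 3.1 and 3.73 FPKM in control, 1.78, 2.59 and 2.68 with IL-1β and 3.22, 3.05 and 3.53 in co-culture. All 3 IL-1β libraries lay below the 6 others, while control and co-culture overlapped. Fos fell with IL-1β to 0.676 times its control level (log2 fold change -0.43 ± 0.1, limma adjusted p = 0.0052). It was 1.39-fold higher in co-culture than with IL-1β alone (log2 fold change 0.36 ± 0.1, limma adjusted p = 0.014), a call lost without co-culture replicate 3 (limma adjusted p = 0.055). Against control, co-culture gave -0.07 with a 95% confidence interval of -0.30 to 0.16.

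Fosl2, which encodes Fra-2, was at 17, 16.5 and 17.4 FPKM in control, 22.5, 16.8 and 15.4 with IL-1β and 16.6, 20.1 and 18.3 in co-culture. Its groups overlapped in every comparison, and the first IL-1β library stood apart from the other 2. Its log2 fold change with IL-1β was 0.08, with a 95% confidence interval of -0.20 to 0.36 (limma adjusted p = 0.61), and -0.07 without that library. Fosb was near the floor throughout, at 0.27, 0.17 and 0.23 FPKM in control, 0.21, 0.18 and 0.14 with IL-1β and 0.15, 0.23 and 0.13 in co-culture. These values overlapped in all comparisons, and no fold is drawn from them.

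Of the Jun family, Jund passed the test with IL-1β, and Junb and Jun did not. Junb read 114, 120 and 114 FPKM in control, 119, 108 and 104 with IL-1β and 128, 134 and 126 in co-culture. Control and IL-1β overlapped (log2 fold change -0.07, 95% confidence interval -0.17 to 0.04, limma adjusted p = 0.26), although without IL-1β replicate 1 the value was -0.12 with an adjusted p of 0.025 from limma. All co-culture libraries were above the other 6. Junb was 1.17-fold higher in co-culture than with IL-1β alone (log2 fold change 0.23 ± 0.05, limma adjusted p = 0.002). Against control the rise of 1.12-fold passed narrowly (log2 fold change 0.16 ± 0.05, limma adjusted p = 0.035), and 9 of 18 alternative settings lost it, with adjusted p of up to 0.12.

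Jun, the gene of c-Jun, the founding AP-1 subunit, was at 20.3, 21 and 21 FPKM in control, 20.8, 20.5 and 19.5 with IL-1β and 21.6, 24.5 and 22.9 in co-culture. Control and IL-1β overlapped (log2 fold change -0.03, 95% confidence interval -0.14 to 0.07, limma adjusted p = 0.59), and all co-culture libraries were above them. Jun was 1.13-fold higher in co-culture than with IL-1β alone (log2 fold change 0.17 ± 0.05, limma adjusted p = 0.012). That call was lost after median-of-ratios scaling (adjusted p = 0.1 from limma) and without co-culture replicate 2 (adjusted p = 0.052). Against control its value was 0.14 on the log2 scale (limma adjusted p = 0.068, and 0.031 without co-culture replicate 1).

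Jund, a Jun gene usually expressed steadily in resting cells, read 26.7, 28.4 and 26.1 FPKM in control, 20.5, 20.2 and 19.6 with IL-1β and 24.5, 23 and 20.2 in co-culture. Control was above both other groups, and co-culture replicate 3 lay within the IL-1β range. Jund fell to 0.743 times control with IL-1β (log2 fold change -0.41 ± 0.06, limma adjusted p = 0.00016). In co-culture it was at 0.834 times control (log2 fold change -0.26 ± 0.06, limma adjusted p = 0.013). It was below control in all 18 alternative settings, and the call was lost without control replicate 2 (adjusted p = 0.055 from limma). Co-culture against IL-1β alone gave 0.15 (limma adjusted p = 0.056), with an adjusted p of 0.0036 without co-culture replicate 3.

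Summed over the family, Fos transcripts rose in level with IL-1β and their make-up moved toward Fosl1. The 4 Fos family genes summed to 44.5 to 45.6 FPKM per control library, 64.1 to 72.4 with IL-1β and 51.1 to 52.9 in co-culture. Fosl1 made up 54.2% ± 1.8 of that sum in control, 69.2% ± 2.76 with IL-1β and 58.1% ± 2.5 in co-culture. Fosl2 supplied 37.6% ± 0.96, 27% ± 3.63 and 35.3% ± 2.66 in the same order, and Fos 7.71% ± 0.74, 3.55% ± 0.95 and 6.3% ± 0.53. The 3 Jun family genes summed to 161 to 169, 143 to 160 and 169 to 182 FPKM. Junb held 70.7% ± 0.04 of the Jun sum in control, 73.2% ± 0.91 with IL-1β and 74% ± 0.51 in co-culture. For each unit of Fos family transcript there were thus 3.63 ± 0.11 units of Jun family transcript in control, 2.25 ± 0.07 with IL-1β and 3.37 ± 0.09 in co-culture. These shares are descriptions of transcripts and carry no test.

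**Figure D3:**
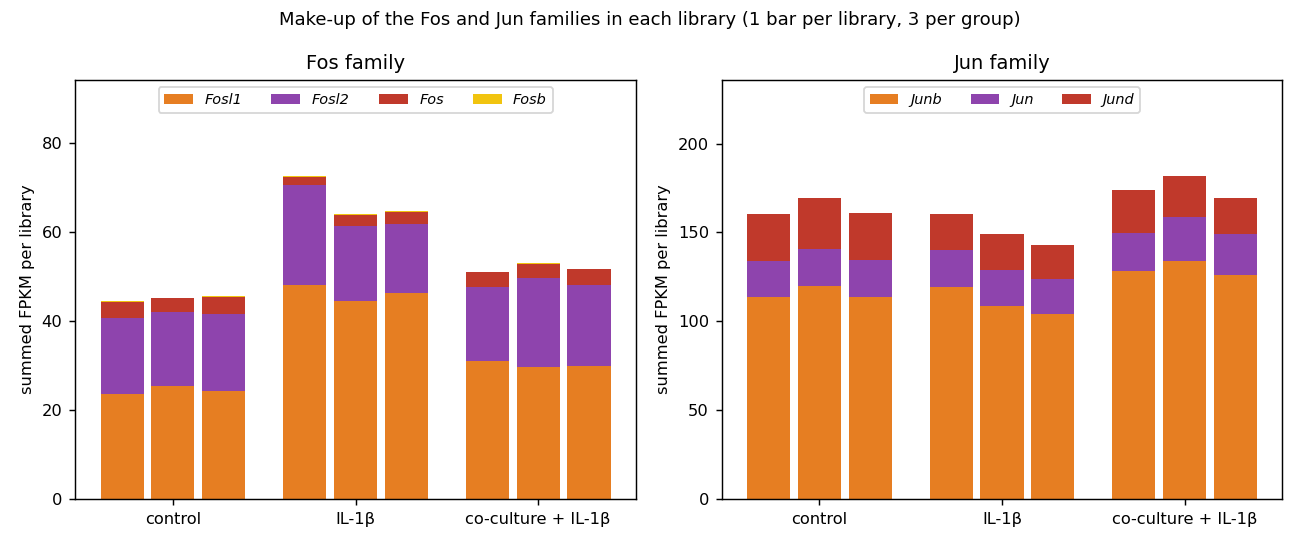
Summed FPKM of the Fos family (left) and the Jun family (right), 1 bar per library and 3 per group, both axes from 0. The Fos sum is 64.1 to 72.4 FPKM with IL-1β against 44.5 to 45.6 in control, and the added height is mostly Fosl1.

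Egr1 and Maff, both outside the Fos and Jun families, moved in opposite directions. Egr1 was at 18.7, 18.5 and 18.4 FPKM in control, 13.5, 11.7 and 12.2 with IL-1β and 19.1, 21 and 19.3 in co-culture. The IL-1β libraries were the 3 lowest, and those of co-culture the 3 highest by a narrow margin. Egr1 fell to 0.673 times control with IL-1β (log2 fold change -0.54 ± 0.05, limma adjusted p = 6.6e-06). It was 1.59-fold higher in co-culture than with IL-1β alone (log2 fold change 0.63 ± 0.05, limma adjusted p = 2.5e-06). Against control, co-culture gave 0.09 with a 95% confidence interval of -0.03 to 0.21 (limma adjusted p = 0.29).

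Maff encodes a small Maf protein, which lacks an activating domain and works as a partner of other bZIP proteins. It read 8.76, 9.29 and 8.98 FPKM in control, 16.6, 17.3 and 14.8 with IL-1β and 10, 10.5 and 9.33 in co-culture. The 3 groups were separate, though control and co-culture only just. Maff rose 1.80-fold with IL-1β (log2 fold change 0.78 ± 0.06, limma adjusted p = 6.2e-07). In co-culture it was 1.63-fold lower than with IL-1β alone (log2 fold change -0.65 ± 0.06, limma adjusted p = 4.4e-06), and 0.13 above control on the log2 scale (limma adjusted p = 0.17).

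Atf3, a stress-induced factor that often represses inflammatory genes, was at 2.21, 2.37 and 2.06 FPKM in control, 1.58, 1.41 and 1.21 with IL-1β and 1.61, 1.76 and 1.3 in co-culture. Control was above all other libraries, and the 2 IL-1β groups overlapped. Atf3 fell to 0.633 times control with IL-1β (log2 fold change -0.42 ± 0.09, limma adjusted p = 0.0019). It was also lower than control in co-culture, at 0.703 times (log2 fold change -0.33 ± 0.09, limma adjusted p = 0.022). The latter call was lost without co-culture replicate 3, control replicate 1 or control replicate 2 (adjusted p of 0.08, 0.059 and 0.08 from limma). Co-culture differed from IL-1β alone by 0.09, with a 95% confidence interval of -0.11 to 0.29.

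In co-culture with IL-1β against IL-1β alone, 4 of the 9 factors were higher (Egr1, Fos, Junb and Jun), against 33.3% of all genes tested, and 2 lower (Fosl1 and Maff), against 16.7%. The 6 of 9 in either direction compare with 50.0% of all genes. Against control, 2 were higher in co-culture (Fosl1 and Junb), beside 12.4% of all genes, and 2 lower (Jund and Atf3), beside 7.91%. Here 4 of 9 passed, beside 20.3% of all genes. In these comparisons too, 0 of the 9 reached 1 on the log2 scale, whereas 2.62% and 0.422% of all genes did so and passed the threshold. Groups did not overlap for 6 of the 9 factors between IL-1β and control (58.3% of all genes), 6 between co-culture and IL-1β (56.7%) and 7 between co-culture and control (37.8%). These comparisons share libraries in pairs, so each is given on its own values.

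For the 6 factors past the threshold with IL-1β, co-culture libraries retained widely different shares of that log2 change. Fosl1 kept 32.7% (29.9% to 37.4% over the co-culture libraries), Maff 16.4% (5.87% to 25.3%) and Fos 16% (-4.64% to 33.2%). Jund kept 62.4% (33.7% to 98.6%) and Atf3 78.7% (51.6% to 114%), both with a wide spread. Egr1 lay beyond control at -16.5% (-31.6% to -7.9%). The ranges of Jund and Atf3 lay above those of Maff and Egr1 and overlapped that of Fosl1 only for Jund. These shares are descriptions with no test.

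**Figure D4:**
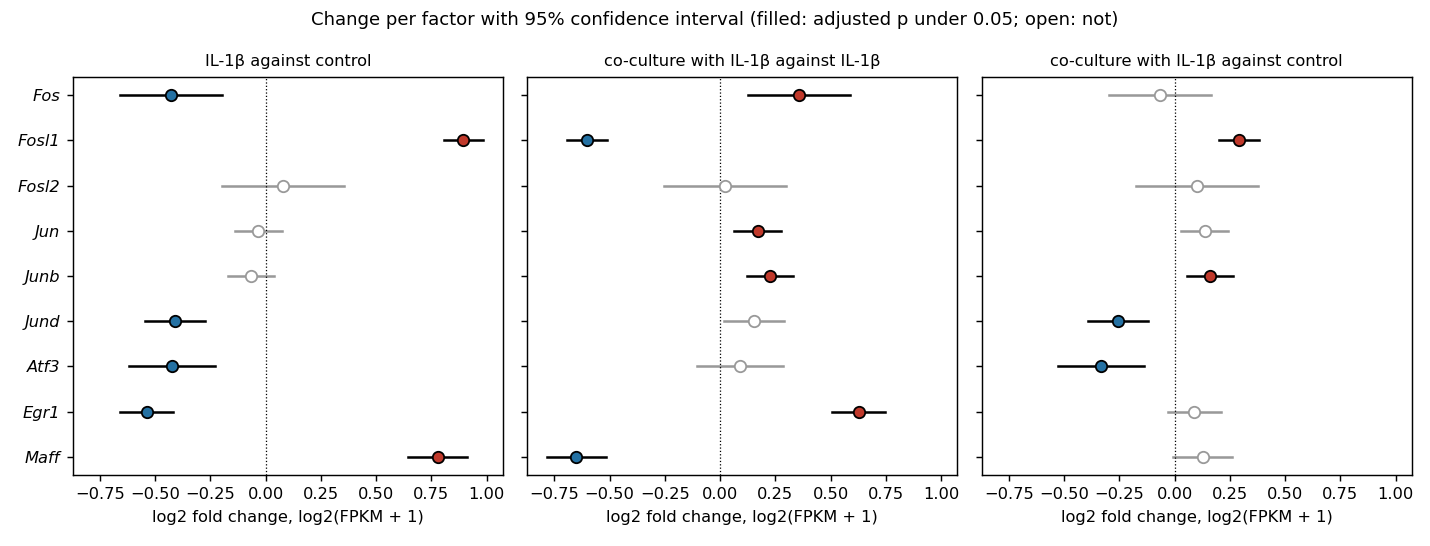
Log2 fold change on the log2(FPKM + 1) scale (x axis) of the 9 factors tested (y axis) in 3 comparisons, with 95% confidence intervals from limma; filled points have an adjusted p under 0.05. Fosl1 and Maff lie right of 0 with IL-1β and left of it in co-culture against IL-1β, and Egr1 and Fos the reverse.

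Related genes were counted by lists, with no test of the counts, against the share of all genes tested. With IL-1β that share was 20.5% higher and 31.2% lower, in co-culture against IL-1β 33.3% and 16.7%, and in co-culture against control 12.4% and 7.91%. Of 16 other bZIP factors tested from a list of 21, 8 were higher and 2 lower with IL-1β. Their median change was 0.17 on the log2 scale, beside -0.04 for all genes. The list leaves out the bZIP genes Atf4 and Atf5, which were counted with the stress genes below. Both were lower with IL-1β (log2 fold changes -0.15 and -1.27). In co-culture against IL-1β Atf5 was higher (0.46) and Atf4 did not pass. Both other small Maf genes rose beside Maff. Mafk was at 10.9 ± 0.3 FPKM in control, 19.2 ± 0.67 with IL-1β and 12.6 ± 0.77 in co-culture (log2 fold change with IL-1β 0.77 ± 0.05, limma adjusted p = 1.3e-07). Mafg was at 18.8 ± 0.36, 28.9 ± 0.42 and 20.3 ± 0.24 FPKM, and Nfe2l2, the gene of the small Maf partner NRF2, at 89.8 ± 0.47, 119 ± 3.78 and 92.5 ± 0.87. Jdp2, which encodes a repressor that binds Jun proteins, fell from 25.5 ± 1.97 to 14.2 ± 0.99 FPKM (log2 fold change -0.81 ± 0.07, limma adjusted p = 9e-07) and was at 23.3 ± 1.42 in co-culture. In co-culture against IL-1β, 2 of the 16 were higher and 8 lower, and with libraries rescaled by median of ratios 1 and 11.

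Other immediate early genes also split. Of 26 tested, 11 were higher and 11 lower with IL-1β, and with libraries rescaled by median of ratios 12 and 7. In co-culture against IL-1β, 9 were higher and 9 lower. Ier3, a survival gene driven by NF-kB, went from 48.9 ± 2.65 to 376 ± 6.05 FPKM with IL-1β and to 80.4 ± 0.09 in co-culture. Nr4a1, an orphan nuclear receptor gene, went from 10.6 ± 0.57 to 31.3 ± 0.51 and 13.6 ± 1.03 FPKM. Klf10, a zinc finger gene induced by TGF-beta, had 14.9 ± 0.86, 6.1 ± 0.4 and 12.8 ± 0.54 FPKM in the same order, and Gadd45a, a growth arrest gene, 52.2 ± 1.15, 27.4 ± 2.05 and 38.1 ± 0.59. The relatives of Egr1, named here after their values were seen, were scarce, Egr2 at 0.36 to 0.72 FPKM and Egr3 at 0.04 to 0.26 over all libraries.

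Genes acting with or under Egr1 moved in both directions, 5 of 11 higher and 5 lower with IL-1β. Nab2, a co-repressor that Egr1 itself induces, followed the pattern of Egr1 at a smaller size, from 70 ± 0.55 to 58.4 ± 0.09 and 74.9 ± 1.28 FPKM (log2 fold change with IL-1β -0.26 ± 0.03, limma adjusted p = 9e-06). Nab1, the other co-repressor, rose from 30.6 ± 0.88 to 43.5 ± 1.68 FPKM and stood at 34.2 ± 0.38 in co-culture. Sphk1, a lipid kinase gene, read 13 ± 0.68, 6.96 ± 0.15 and 12.1 ± 0.17 FPKM.

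Of 26 transcripts tested of the kinases that lead to AP-1, 7 were higher and 5 lower with IL-1β, a share near the 51.7% of all genes, and 14 did not pass. With libraries rescaled by median of ratios the counts were 10 and 4. Map3k8, which encodes the ERK pathway kinase TPL2, rose from 4.95 ± 0.16 to 33.6 ± 1.61 FPKM (log2 fold change 2.54 ± 0.05, limma adjusted p = 3.3e-12) and was at 7.52 ± 0.39 in co-culture. Mapkapk2, a kinase under p38, went from 72.3 ± 1.47 to 144 ± 4.31 and 79.3 ± 2.83 FPKM. Others of the list fell with IL-1β: Mapkapk3 had 10.8 ± 0.6, 6.08 ± 0.14 and 8.62 ± 0.29 FPKM in the same order. Rps6ka4 had 31.8 ± 0.23, 20.5 ± 0.84 and 29.6 ± 1.24 FPKM. The JNK gene Mapk8 had 5.07 ± 0.24, 6.02 ± 0.35 and 5.32 ± 0.31 FPKM, and the p38 gene Mapk14 34.5 ± 0.85, 31.7 ± 1.48 and 32.3 ± 0.15. Of 7 genes of serum response factor, its Elk partners and the MEF2 factors, 2 were higher and 1 lower with IL-1β. Elk3 (log2 fold change 0.26) and Mef2d (0.28) were higher, and Mef2c (-0.38) was lower. Srf itself was at 13.7 ± 0.35, 14.4 ± 0.34 and 14.7 ± 0.32 FPKM and did not pass in any comparison (lowest limma adjusted p = 0.12). Transcript levels do not report kinase activity.

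A pair of lists of stress genes bear on Atf3, which is itself a stress gene. Of 15 genes of the ATF4 pathway and related stress, 10 were lower and 5 higher with IL-1β, the median change being -0.51 on the log2 scale. In co-culture against control 11 were lower and 1 higher, with a median of -0.40, beside 0.02 for all genes. Atf4 itself was at 308 ± 2 FPKM in control, 278 ± 2.97 with IL-1β and 273 ± 7.09 in co-culture, and its target Trib3 at 18.6 ± 0.74, 8.68 ± 0.87 and 9.8 ± 0.71. Others of the list went otherwise: with IL-1β Slc7a11, a cystine transporter gene, rose from 1.99 ± 0.08 to 5.3 ± 0.25 FPKM, and Hspa5, an endoplasmic reticulum chaperone gene, from 783 ± 17.6 to 971 ± 23.2. Phgdh, a serine synthesis gene, fell from 36.6 ± 1.24 to 9.85 ± 0.46 FPKM and was at 22.7 ± 1.01 in co-culture. Of 11 heat shock genes, 6 were lower and 2 higher with IL-1β. In co-culture against IL-1β 8 were higher and 2 lower, the same after quantile normalization, and 5 and 2 with libraries rescaled by median of ratios. The part of these genes in the values of Atf3, Fos and Egr1 was not tested.

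Genes described as AP-1 targets in fibroblasts changed far more than the factors themselves. Of 25 tested, 23 were higher and 1 lower with IL-1β, the median change being 2.28 on the log2 scale. In co-culture against IL-1β 19 were lower and 3 higher, with a median of -1.38. The gene at the median in each of these comparisons was Dcn, which is also counted above as a fibroblast marker. Against control, 22 of the 25 were still higher in co-culture and 1 lower, with a median of 0.59, beside 0.02 for all genes. The list was chosen with earlier results of these data known, so its direction is no independent evidence. Many of its genes are known to answer to NF-kB as well. Mmp3, the stromelysin gene, went from 196 ± 4.1 to 3556 ± 35.3 and 844 ± 5.54 FPKM, and Mmp13, the collagenase gene, from 73.2 ± 0.65 to 780 ± 33 and 71.6 ± 0.49. Against control, Mmp3 in co-culture was higher by 2.10 on the log2 scale (limma adjusted p = 1.1e-12), while Mmp13, 1 of the 2 genes that did not pass, gave -0.03 with a 95% confidence interval of -0.10 to 0.04.

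**Figure D5:**
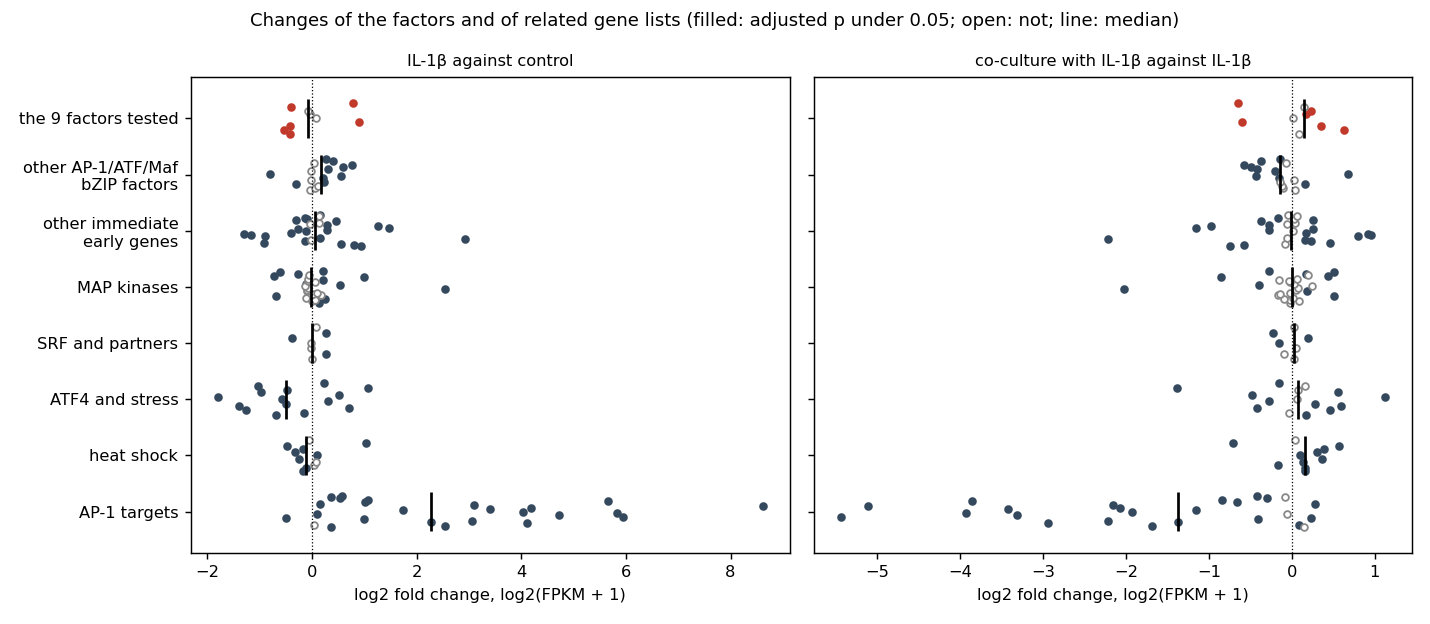
Log2 fold change on the log2(FPKM + 1) scale (x axis; scales differ between panels) of the factors and of 7 related gene lists (y axis), with IL-1β against control on the left and co-culture against IL-1β on the right; points are genes, filled where the adjusted p is under 0.05, and lines are medians. The 9 factors stay within 1 of 0, and the AP-1 targets have a median of 2.28 with IL-1β. Atf4 and Atf5 are plotted with the stress genes, and the MEF2 genes with serum response factor.

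For each factor the genes with the closest profile over the 9 libraries were found by the root mean square difference of log2(FPKM + 1) values centred on each gene's mean. Cpt1a, a fatty acid oxidation enzyme gene, was closest to Fosl1 (difference 0.03), at 9.52, 18.4 and 11.6 FPKM in control, IL-1β and co-culture. Ccdc92 was closest to Maff (0.05), Rnpep to Egr1 (0.05), Dkc1 to Junb (0.02), Cactin to Jun (0.03), Plgrkt to Fos (0.08) and Porcn to Fosl2 (0.08). Adamtsl4 was the closest gene to both Jund (0.04) and Atf3 (0.05), at 10.8, 7.78 and 8.71 FPKM. Among the factors themselves, the nearest pairs were Jun with Junb (0.05), Jund with Atf3 (0.06) and Fosl1 with Maff (0.10). The 1 added before the log shrinks changes of low genes such as Atf3, so its matches depend on that setting. With IL-1β Atf3 fell to 0.633 times control and Jund to 0.743 times, nearly the same change on this scale.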

How the data were processed

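RNA of 9 libraries (3 groups of 3) was made from oligo(dT)-captured, fragmented and randomly primed RNA, per the labels' protocols. The deposited values are FPKM with 2 decimals, 1 column per library, per the file headers. Aligner, quantifier and annotation: not given in the sources used here. The build in the submitters' processing notes is GRCm38, a mouse build, while 16152 of 17298 identifiers (93.4%) were rat genes of RefSeq assembly GRCr8. Depth could not be recovered: of 89 genes with a 0 and a smallest other value of at least 0.5 FPKM, 27.1% of larger values lay within 0.1 of a whole multiple of that smallest value. Precision therefore rests on 3 libraries a group.

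Genes with a mean of at least 1 FPKM (11372) were fitted as log2(FPKM + 1) by limma 3.58.1 (R 4.3.3), with a coefficient for each group, a mean-variance trend and robust settings. Log2 fold changes are on that scale, which understates low genes, with SE from the fit, and folds are ratios of mean FPKM. The factors and the gene lists were chosen with earlier results of these data known. Genes named from a list were taken from those with the 4 smallest p in a comparison or the 2 highest levels, and not all of these are described. Srf, Mapk8, Mapk14, Dusp1, Il6, Mmp3, Mmp13 and the 2 nearest profiles per factor were chosen as well. Of these, Dusp1, Il6 and the second nearest profiles are not described. Col1a1, Ptprc, Gdf5, Egr2 and Egr3 were named outside this rule. The alternatives were other pseudocounts, filters, scalings and spread models, only the groups compared, a replicate block, and each library left out in turn.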

Additional observations from a re-analysis of the deposited data

How the results depend on the processing

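Of the 27 results for single factors, 16 kept their direction and their side of the threshold under every alternative tried (up to 18 each), among them the IL-1β changes of Fosl1, Maff, Egr1, Jund, Fos and Atf3. Directions that turned were all of values that did not pass. Jun with IL-1β was 0.011 after median-of-ratios scaling. Fosl2 with IL-1β was -0.072 without IL-1β replicate 1, and up to 0.185 with another library left out. In co-culture against IL-1β Fosl2 was -0.0407 after median-of-ratios scaling, -0.0263 with quantile-normalized values, and -0.0824 to 0.175 with 1 library left out. The count of lower factors with IL-1β was 2 with a mean of at least 5 FPKM, since that filter removes Fos and Atf3, and in co-culture against control it was 1. The count of higher factors in co-culture against control was 1 after quantile normalization, after median-of-ratios scaling, with no filter, and with no trend and no robust settings, each time without Junb. With 1 library left out, that count was 1 to 2 and the count of lower factors in that comparison 0 to 2. The call of Junb there was lost without co-culture replicate 1, 2 or 3 and without control replicate 1 or 3. Over all genes, IL-1β gave 2330 higher and 3544 lower, and 2887 and 2877 after median-of-ratios scaling; co-culture against IL-1β gave 3786 and 1901, and 2721 and 2636; co-culture against control gave 1408 and 899, and 1146 and 1073, or 1008 and 1166 after quantile normalization. The labels do not say that replicate numbers pair the libraries. Same-numbered deviations from the group means correlated at -0.046 to 0.189, over 0.1 in 1 of 9 pairs, and 11 of 18 best matches fell on the same number, so a weak pairing is possible. With the replicate block, 5 factors were higher in co-culture against IL-1β in place of 4, Jund being added (adjusted p = 0.029 from limma). The deposited values hold no depth, so counting error at the levels of Fosb, Atf3 and Fos could not be set apart from the spread between libraries.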
